A study of Homo sapiens with 12 samples.

Results

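Mitosis and G2/M genes are the genes that dividing cells switch on late in the cell cycle. The 40 described here were chosen by name, as the core cyclins, kinases, checkpoint, kinetochore, spindle and cytokinesis genes, and all 40 were found among the 21996 genes on the arrays. TF-1 is a human erythroleukaemia cell line that needs the cytokine GM-CSF to grow and survive. The cells carried a pMSCV-puro retroviral vector that was either empty or held GNB1, which encodes a beta subunit of heterotrimeric G proteins, with the K89E change. There were 4 groups of 3 arrays, labelled as biological triplicates. They were K89E cells 12 h after GM-CSF withdrawal, K89E cells kept in GM-CSF, empty vector cells 12 h after withdrawal, and empty vector cells kept in GM-CSF. No group carried unmutated GNB1 in the vector, and the sources used here do not say whether a line was 1 clone or a pool, so the mutant and other differences between the lines cannot be told apart. The deposited table names genes by Ensembl ID plus _at. The symbols of the 40 genes come with the list that defines them, and neither GNB1 nor markers of TF-1 cells could be looked up.

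Entry into mitosis is driven by CDK1 bound to cyclins A and B, with Polo-like and Aurora kinases acting beside it. The spindle checkpoint then holds the cell until all kinetochores are attached, after which CDC20 and the anaphase-promoting complex start the breakdown of cyclin B and securin. Transcripts of these genes accumulate in G2, under the transcription factor FOXM1 and MuvB complexes, and are kept low in resting cells. In a mixed culture such as this, fewer cells in G2 and mitosis and less RNA per cell cannot be told apart.

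Many late cell cycle promoters carry a cell cycle genes homology region (CHR, TTTGAA), the element that MuvB complexes bind, and CCAAT boxes, which bind NF-Y. RefSeq promoter windows (GRCh38.p14, 250 bases before to 50 after the start) were at hand for 33 of the 40 genes, and some genes had several. Not matched were AURKA, TPX2, BIRC5, UBE2C, TTK, FOXM1 and RACGAP1. On either strand, TTTGAA was found for 25 of these 33 genes (75.8%), against 18.2% of all 27305 genes with a window. Counted by window, it stood in 28 of 40 (70%), against 15.2% of all 35116 windows. CCAAT was found for 27 of the 33 genes (81.8%), against 39.7% of all genes, and both motifs shared a window in 21 genes (63.6%), against 7.26% of all. The variant TTTAAA was found for 13 of the 33 (39.4%), against 14.5% of all genes. These motifs can overlap only at their end bases, and a match is a description of the letters, not a bound site. The windows below are those of the 4 genes with TTTGAA that had the largest changes on withdrawal in empty vector cells. Each runs 5′ to 3′ on the gene's strand, with matches to TTTGAA and CCAAT, or to their reverse complements, in capitals.
MAD2L1 (chr4:120066799-120067098, minus strand): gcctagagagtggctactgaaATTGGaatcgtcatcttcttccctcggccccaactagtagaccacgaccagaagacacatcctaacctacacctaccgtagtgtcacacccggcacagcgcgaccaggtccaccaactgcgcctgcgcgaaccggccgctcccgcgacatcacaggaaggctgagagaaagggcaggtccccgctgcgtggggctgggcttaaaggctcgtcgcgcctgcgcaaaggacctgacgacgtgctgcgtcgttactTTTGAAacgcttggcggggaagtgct
PLK1 (chr16:23678639-23678938, plus strand): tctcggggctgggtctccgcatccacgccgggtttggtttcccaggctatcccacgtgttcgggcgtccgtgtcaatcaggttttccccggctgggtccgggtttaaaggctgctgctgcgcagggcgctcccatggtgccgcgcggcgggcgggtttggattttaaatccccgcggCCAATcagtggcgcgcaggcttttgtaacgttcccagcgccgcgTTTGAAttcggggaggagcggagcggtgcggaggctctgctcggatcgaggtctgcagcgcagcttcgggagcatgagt
CDC20 (chr1:43358731-43359030, plus strand): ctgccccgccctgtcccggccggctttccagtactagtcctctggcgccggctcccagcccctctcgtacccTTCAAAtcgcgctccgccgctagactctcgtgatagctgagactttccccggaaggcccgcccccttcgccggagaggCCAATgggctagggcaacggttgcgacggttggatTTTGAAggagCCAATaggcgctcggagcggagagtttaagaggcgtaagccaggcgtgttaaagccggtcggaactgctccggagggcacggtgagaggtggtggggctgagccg
CDC25C (chr5:138331755-138332054, minus strand): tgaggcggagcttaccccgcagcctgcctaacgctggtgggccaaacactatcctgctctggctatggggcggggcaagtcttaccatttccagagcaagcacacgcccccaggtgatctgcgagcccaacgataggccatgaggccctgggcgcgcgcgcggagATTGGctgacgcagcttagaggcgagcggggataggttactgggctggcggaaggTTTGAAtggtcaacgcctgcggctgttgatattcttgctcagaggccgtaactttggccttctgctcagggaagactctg
In PLK1 the TTTGAA begins 29 bases before the annotated start, and in CDC25C 30 bases before it. In CDC20 1 copy begins 65 bases before the start, between CCAAT boxes that begin 100 and 55 bases before it. In MAD2L1 the match lies after the start, from base 25 to base 30.

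Arrays were compared on log2 intensities. Array medians lay between 172.6 and 179.9 on the linear scale, arrays of the same group correlated at 0.996 or more across all genes, and no columns were identical. Signals of 38 of the 40 genes lay in the top bin when all genes were divided into 4 by mean intensity, where changes are called more often than elsewhere. That bin is therefore given as a second background for shares called lower and for median changes. Other shares and correlations were set against all genes only, most of which are dimmer. Averaged over the 40 genes, the log2 intensity was 10.62, 10.52 and 10.58 in the withdrawn K89E arrays and 10.72, 10.66 and 10.70 in the K89E arrays with GM-CSF. It was 10.61, 10.68 and 10.66 in the withdrawn empty vector arrays and 10.76, 10.76 and 10.77 in the empty vector arrays with GM-CSF. Withdrawn arrays thus lay below those with GM-CSF in each line, and K89E arrays with GM-CSF lay below empty vector arrays with GM-CSF. The withdrawn arrays of both lines overlapped. Of the 40 genes, 34 had their lowest group mean in withdrawn K89E cells, and 32 had their highest in empty vector cells with GM-CSF. Withdrawn K89E replicate 2 held the lowest of the 12 values for 30 of the 40 genes. Total counts of calls and median changes that rest on it are therefore also given without it. Orders of group means, array overlaps, signs and correlations were not recomputed without it.

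**Figure D1:**
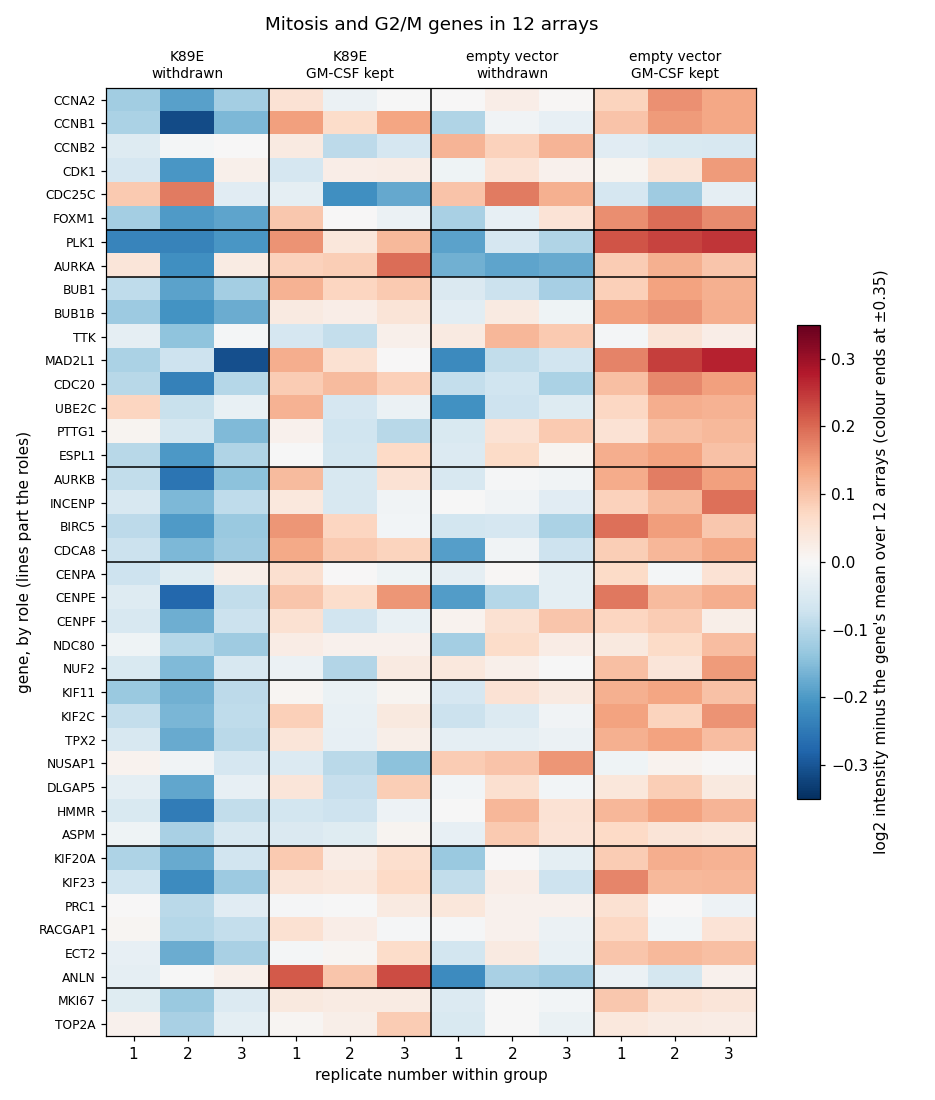
Heat map of the 40 mitosis and G2/M genes (down the page, grouped by role) in the 12 arrays (across, 3 per group). Colour gives the log2 intensity of a gene in an array minus its mean over the 12 arrays, red above and blue below. Most rows are bluest in withdrawn K89E cells, above all in replicate 2, and reddest in empty vector cells with GM-CSF. By group means CDC25C, CCNB2, NUSAP1, ANLN, AURKA, UBE2C, TOP2A, PRC1 and TTK depart from that order.

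GM-CSF withdrawal was followed by small falls in many of these genes in both lines. In K89E cells 22 of 40 fell (55%) and 1 rose, and in empty vector cells 23 of 40 fell (57.5%) and 3 rose. Among all genes 10.6% fell in K89E cells and 11.7% in empty vector cells, and in the top bin 28.6% and 30.0%. Rises were called for 7.29% and 8.73% of all genes. Over the 40 genes the median log2 change came to -0.12 in each line, where it was 0.02 and 0.01 over all genes and -0.04 in both lines over the top bin. The 21 genes that fell in both lines include PLK1, CCNB1, CCNA2, FOXM1, AURKA, AURKB, BUB1, BUB1B, CDC20, MAD2L1, CENPE and BIRC5. Among all genes 8.26% fell in both. These responses share no array, though their tests share an estimate of the spread made over all 12 arrays. A call means limma adjusted p under 0.05 over all 21996 genes. Leaving out an array of a group that is not compared keeps a log2 change and acts only on the shared estimate of the spread. No called gene changed by as much as 1.5-fold. The arrays of both conditions did not overlap, with withdrawal lower, for 23 of the 40 in K89E cells and 26 in empty vector cells, where 16.2% and 18.4% of all genes did so. Without withdrawn K89E replicate 2 the calls in K89E cells numbered 15 and the median change was -0.087, with MKI67, AURKA, KIF11, KIF2C, TPX2, ECT2, ESPL1 and CDC25C no longer called. Among all genes 14.3% were then called, against 17.9% with all arrays. Without withdrawn empty vector replicate 1 the calls in empty vector cells numbered 19, with MKI67, CCNB1, AURKB, KIF11, UBE2C, ANLN and ECT2 no longer called, and the rises numbered 1 without empty vector withdrawn replicate 3 or GM-CSF replicate 1. Leaving out withdrawn empty vector replicate 1, 17.3% of all genes were called, against 20.4% with all arrays.

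**Figure D2:**
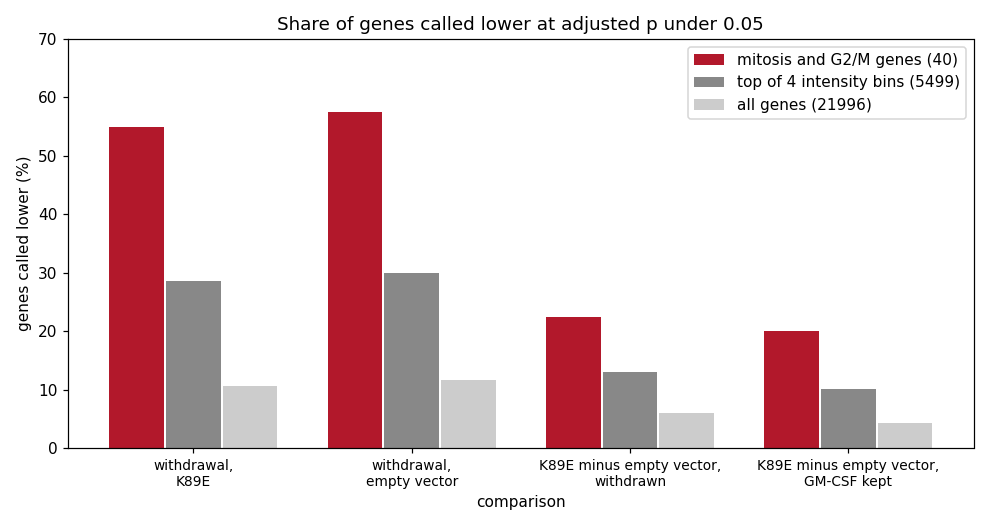
Bars give the percentage of genes called lower (limma adjusted p under 0.05) in 4 comparisons along the x axis, for the 40 mitosis and G2/M genes, for the 5499 genes in the top of 4 intensity bins and for all 21996 genes. On withdrawal 55% and 57.5% of the 40 genes were lower in K89E and empty vector cells, against 28.6% and 30.0% of the top bin.

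Among the cyclins, CDK1 and their regulators, CCNB1, CCNA2 and FOXM1 fell in both lines and CDC25C rose. CCNB1 (ENSG00000134057_at), the B-type cyclin that brings CDK1 into mitosis, read 10.59, 10.39 and 10.54 in withdrawn K89E cells, against 10.84, 10.76 and 10.84 in K89E cells with GM-CSF. The empty vector line read 10.59, 10.69 and 10.67 withdrawn, against 10.80, 10.85 and 10.83 with GM-CSF. All withdrawn arrays lay below those with GM-CSF of the same line. It fell by 0.31 (SE 0.046, limma adjusted p = 0.000336) in K89E cells and by 0.18 (SE 0.046, limma adjusted p = 0.0132) in empty vector cells. The second of these calls was lost after quantile normalization and without empty vector withdrawn replicate 1 or GM-CSF replicate 2, with adjusted p of at most 0.0621 over all alternatives. CCNA2 (ENSG00000145386_at), the A-type cyclin of S and G2 phase, fell by 0.15 and 0.11 in K89E and empty vector cells. Its empty vector call was lost with a prior variance without a trend, after quantile normalization, and without empty vector GM-CSF replicate 2 or 3 (limma adjusted p of at most 0.0888).

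CCNB2 (ENSG00000157456_at), the other B-type cyclin of the list, did not follow CCNB1. It read 11.64, 11.68 and 11.69 in withdrawn K89E cells, against 11.72, 11.59 and 11.63 with GM-CSF. Withdrawn empty vector cells read 11.80, 11.77 and 11.81, against 11.65, 11.63 and 11.63 with GM-CSF. The K89E groups overlapped, and the empty vector groups lay apart with withdrawal higher. It rose by 0.16 (SE 0.030, limma adjusted p = 0.00181) in empty vector cells, and in K89E cells the change was 0.02 (95% interval -0.04 to 0.09, limma adjusted p = 0.675). CDC25C (ENSG00000158402_at), the phosphatase that activates CDK1, rose in both lines. Its values were 8.28, 8.37 and 8.15 in withdrawn K89E cells, against 8.15, 7.97 and 8.01 with GM-CSF. In empty vector cells they were 8.29, 8.37 and 8.31 withdrawn, against 8.12, 8.06 and 8.15 with GM-CSF. The K89E groups overlapped, since withdrawn replicate 3 lay just below GM-CSF replicate 1, and the empty vector groups did not overlap. The log2 change was 0.22 (SE 0.063, limma adjusted p = 0.0259) in K89E and 0.21 (SE 0.063, limma adjusted p = 0.031) in empty vector cells. With 1 array left out, its call held in 8 and 7 of 12 fits in K89E and empty vector cells. It was lost in K89E cells without withdrawn replicate 1 or 2 or GM-CSF replicate 2 or 3, and in empty vector cells without withdrawn replicate 2 or 3 or any GM-CSF array. Over all alternatives the highest limma adjusted p was 0.113 in K89E and 0.123 in empty vector cells.

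FOXM1 (ENSG00000111206_at), the transcription factor of the G2 genes, read 9.92, 9.83 and 9.85 in withdrawn K89E cells, against 10.13, 10.03 and 10.01 with GM-CSF. Empty vector cells read 9.92, 10.004 and 10.08 after withdrawal, against 10.20, 10.23 and 10.20 with GM-CSF. Neither line's groups overlapped. FOXM1 fell by 0.19 (SE 0.043, limma adjusted p = 0.00637) in K89E and by 0.21 (SE 0.043, limma adjusted p = 0.00334) in empty vector cells. For CDK1 (ENSG00000170312_at), the kinase these cyclins activate, no change was called. It read 10.29, 10.14 and 10.36 in withdrawn K89E cells, against 10.29, 10.37 and 10.37 with GM-CSF, and 10.33, 10.39 and 10.36 in withdrawn empty vector cells, against 10.35, 10.39 and 10.49 with GM-CSF. The groups overlapped in both lines, and the log2 changes were -0.08 (95% interval -0.19 to 0.03) and -0.05 (95% interval -0.16 to 0.06) in K89E and empty vector cells.

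Both mitotic kinases outside the other groups, PLK1 and AURKA, fell in both lines. PLK1 (ENSG00000166851_at), the Polo-like kinase that acts from mitotic entry to cytokinesis, read 12.05, 12.05 and 12.08 in withdrawn K89E cells, against 12.44, 12.32 and 12.40 with GM-CSF. The empty vector values were 12.10, 12.22 and 12.18 after withdrawal and 12.50, 12.52 and 12.53 with GM-CSF. Within each line the gap between withdrawn arrays and those with GM-CSF was wider than the spread within any group. On the log2 scale PLK1 fell by 0.33 (SE 0.034, limma adjusted p = 1.75e-05) in K89E and by 0.35 (SE 0.034, limma adjusted p = 5.75e-06) in empty vector cells. Its intensity fell by 20.2% in K89E cells and fell by 21.6% in empty vector cells. AURKA (ENSG00000087586_at), the Aurora kinase of centrosomes and spindle poles, read 11.25, 10.99 and 11.23 in withdrawn K89E cells, against 11.29, 11.29 and 11.40 with GM-CSF. Empty vector cells gave 11.04, 11.02 and 11.03 after withdrawal, against 11.30, 11.33 and 11.30 with GM-CSF. Groups did not overlap in either line, though withdrawn K89E replicate 2 stood apart from its own group. The log2 change was -0.17 (SE 0.054, limma adjusted p = 0.0432) in K89E and -0.28 (SE 0.054, limma adjusted p = 0.00164) in empty vector cells. The K89E call held in 2 of 12 fits with 1 array left out, those without withdrawn K89E replicate 1 or 3, and its highest adjusted p was 0.175.

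Of 8 genes of the spindle checkpoint and of anaphase control, 5 fell in each line and none rose. Of the top bin 28.6% and 30.0% fell in K89E and empty vector cells, and 12.9% and 16.4% rose. MAD2L1 (ENSG00000164109_at), which with BUB1B keeps CDC20 inactive until kinetochores are attached, read 11.06, 11.10 and 10.86 in withdrawn K89E cells, against 11.30, 11.22 and 11.17 with GM-CSF. Empty vector arrays read 10.95, 11.08 and 11.10 withdrawn, against 11.34, 11.41 and 11.44 with GM-CSF. No withdrawn array reached its line's GM-CSF arrays. MAD2L1 fell by 0.22 (SE 0.058, limma adjusted p = 0.0142) in K89E and by 0.35 (SE 0.058, limma adjusted p = 0.000492) in empty vector cells. The K89E call was lost without K89E withdrawn replicate 3 or GM-CSF replicate 1, with adjusted p of at most 0.062. CDC20 (ENSG00000117399_at), the activator of the anaphase-promoting complex, read 12.59, 12.45 and 12.58 in withdrawn K89E cells, against 12.77, 12.79 and 12.77 with GM-CSF. Withdrawn empty vector cells read 12.60, 12.61 and 12.57, against 12.79, 12.85 and 12.83 with GM-CSF. Again the groups lay apart in both lines, and CDC20 fell by 0.24 (SE 0.033, limma adjusted p = 0.00019) and by 0.23 (SE 0.033, limma adjusted p = 0.000215) in K89E and empty vector cells. BUB1, a checkpoint kinase, fell by 0.23 and 0.20, and BUB1B by 0.20 and 0.15, in the same order of lines. UBE2C, the E2 enzyme of the anaphase-promoting complex, fell only in the empty vector test, with changes of -0.02 in K89E and -0.22 in empty vector cells, and that call was lost without empty vector withdrawn replicate 1 (limma adjusted p = 0.0522). ESPL1, the protease separase, was called only in K89E cells (-0.14, against -0.11 in empty vector cells), and its call was lost without any empty vector GM-CSF array, withdrawn K89E replicate 2 or 3, or K89E GM-CSF replicate 1 or 3. It was also lost under 5 other alternatives, held in 9 of 21 in all, and reached a limma adjusted p of 0.177. TTK, the checkpoint kinase MPS1, and PTTG1, the separase inhibitor securin, were not called in either line, at -0.02 and -0.02 in K89E cells and 0.06 and -0.06 in empty vector cells.

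The chromosomal passenger complex corrects wrong attachments and later marks the cleavage plane. Its kinase AURKB, BIRC5 (survivin) and CDCA8 (borealin) fell in both lines. AURKB (ENSG00000178999_at) read 10.64, 10.47 and 10.58 in withdrawn K89E cells, against 10.83, 10.67 and 10.77 with GM-CSF, and 10.67, 10.72 and 10.71 in withdrawn empty vector cells, against 10.85, 10.90 and 10.87 with GM-CSF. Withdrawn arrays were the lower ones throughout, and AURKB fell by 0.20 (SE 0.046, limma adjusted p = 0.00744) in K89E and by 0.18 (SE 0.046, limma adjusted p = 0.013) in empty vector cells. That empty vector call, like that of CCNB1, was lost after quantile normalization and without empty vector withdrawn replicate 1 or GM-CSF replicate 2. BIRC5 (ENSG00000089685_at) read 9.55, 9.44 and 9.51 in withdrawn K89E cells, against 9.79, 9.71 and 9.63 with GM-CSF, and 9.57, 9.58 and 9.53 in withdrawn empty vector cells, against 9.83, 9.78 and 9.73 with GM-CSF. Its groups lay apart too, and it fell by 0.21 (SE 0.045, limma adjusted p = 0.0041) and by 0.22 (SE 0.045, limma adjusted p = 0.00246) in K89E and empty vector cells. For CDCA8 (ENSG00000134690_at) the values were 9.93, 9.85 and 9.89 in withdrawn K89E cells, against 10.14, 10.10 and 10.09 with GM-CSF. For the empty vector line they were 9.82, 9.996 and 9.94 withdrawn, against 10.09, 10.13 and 10.14 with GM-CSF. Its groups did not overlap in either line, and CDCA8 fell by 0.22 (SE 0.042, limma adjusted p = 0.00225) in K89E and by 0.20 (SE 0.042, limma adjusted p = 0.00295) in empty vector cells. The scaffold INCENP (ENSG00000149503_at) read 9.34, 9.24 and 9.30 in withdrawn K89E cells, against 9.43, 9.34 and 9.38 with GM-CSF, which overlapped narrowly. Withdrawn empty vector cells read 9.39, 9.38 and 9.35, against 9.47, 9.50 and 9.59 with GM-CSF, which did not. The log2 value of INCENP differed by -0.09 (SE 0.041, limma adjusted p = 0.16) in K89E cells, and it fell by 0.15 (SE 0.041, limma adjusted p = 0.0194) in empty vector cells, a call lost after quantile normalization and without empty vector withdrawn replicate 3 or GM-CSF replicate 3.

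Of 5 centromere and kinetochore genes, 1 was called in each line, no larger a share than the top bin's 28.6% and 30.0% lower. All 5 had changes below 0, as did 44.3% and 45.3% of all genes in K89E and empty vector cells. CENPE (ENSG00000138778_at), the kinetochore motor that moves chromosomes to the spindle equator, read 9.95, 9.72 and 9.91 in withdrawn K89E cells, against 10.09, 10.05 and 10.15 with GM-CSF. Empty vector cells read 9.80, 9.89 and 9.96 after withdrawal, against 10.18, 10.10 and 10.12 with GM-CSF. The groups lay apart in both lines, and CENPE fell by 0.24 (SE 0.056, limma adjusted p = 0.00766) in K89E and by 0.25 (SE 0.056, limma adjusted p = 0.00468) in empty vector cells. CENPF (ENSG00000117724_at), a large protein of the outer kinetochore, read 10.92, 10.81 and 10.90 in withdrawn K89E cells, against 11.03, 10.91 and 10.95 with GM-CSF, and 10.99, 11.03 and 11.07 in withdrawn empty vector cells, against 11.05, 11.07 and 11.00 with GM-CSF. NUF2 (ENSG00000143228_at), which binds microtubules at the kinetochore, read 9.55, 9.45 and 9.55 in withdrawn K89E cells, against 9.58, 9.50 and 9.64 with GM-CSF, and 9.64, 9.62 and 9.60 in withdrawn empty vector cells, against 9.71, 9.65 and 9.75 with GM-CSF. CENPF groups overlapped in both lines, and NUF2 groups overlapped in K89E cells. CENPA, the centromeric histone H3 variant, CENPF, and the NDC80 complex subunits NDC80 and NUF2 had changes between -0.099 and -0.045 in K89E cells and between -0.081 and -0.008 in empty vector cells. With GM-CSF kept, NUF2 differed by -0.13 between K89E and empty vector cells (SE 0.043, limma adjusted p = 0.0813). Differences between these genes were not tested.

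Of 7 spindle motor and microtubule genes, KIF11, the motor that pushes spindle poles apart, KIF2C, a microtubule depolymerase, and TPX2, the activator of AURKA on microtubules, fell in both lines. KIF2C (ENSG00000142945_at) read 10.69, 10.61 and 10.68 in withdrawn K89E cells, against 10.86, 10.75 and 10.81 with GM-CSF, and 10.70, 10.73 and 10.76 in withdrawn empty vector cells, against 10.91, 10.85 and 10.93 with GM-CSF. Its groups did not overlap, and KIF2C fell by 0.14 (SE 0.035, limma adjusted p = 0.0117) in K89E and by 0.17 (SE 0.035, limma adjusted p = 0.00302) in empty vector cells. KIF11 fell by 0.13 in K89E and 0.11 in empty vector cells, and TPX2 by 0.12 and 0.15. With 1 array left out, the K89E calls of KIF2C, KIF11 and TPX2 held in 10, 11 and 10 of 12 fits and the empty vector call of KIF11 in 9, with limma adjusted p of at most 0.0968 over all alternatives. NUSAP1, which bundles spindle microtubules, went the other way. It rose by 0.11 in empty vector cells (SE 0.031, limma adjusted p = 0.017) and changed by 0.08 in K89E cells (limma adjusted p = 0.112). The rise was lost with a prior variance without a trend, after centring on array medians, and without empty vector withdrawn replicate 3 or GM-CSF replicate 1, with adjusted p of at most 0.146. DLGAP5, HMMR and ASPM, which act at spindle microtubules and poles, were not called in either line and had changes between -0.097 and -0.033 in K89E cells and between -0.069 and -0.014 in empty vector cells.

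Of 6 central spindle and cytokinesis genes, 4 fell in each line, where 28.6% and 30.0% of the top bin fell in K89E and empty vector cells. KIF23 (ENSG00000137807_at), the motor of the centralspindlin complex, read 11.15, 11.00 and 11.09 in withdrawn K89E cells, against 11.26, 11.26 and 11.29 with GM-CSF. Values of the empty vector line were 11.14, 11.24 and 11.15 after withdrawal and 11.39, 11.33 and 11.34 with GM-CSF. Groups did not overlap, and KIF23 fell by 0.19 (SE 0.039, limma adjusted p = 0.00326) and by 0.18 (SE 0.039, limma adjusted p = 0.00393) in K89E and empty vector cells. KIF20A, a central spindle motor, fell by 0.18 and 0.17. ECT2, the exchange factor that activates RhoA at the cleavage plane, fell by 0.13 in both lines, calls that held in 9 and 7 of 12 fits with 1 array left out in K89E and empty vector cells. They were lost in both with a prior variance without a trend and after quantile normalization, in K89E cells without withdrawn replicate 2 or 3 or GM-CSF replicate 3, and in empty vector cells without withdrawn replicate 1 or 3 or any GM-CSF array (limma adjusted p of at most 0.112). ANLN, the cortical scaffold anillin, fell by 0.18 in K89E and 0.13 in empty vector cells, and the empty vector call held in 9 of 12 such fits, with adjusted p of at most 0.138. RACGAP1, the partner of KIF23, and PRC1, which bundles the central spindle, were not called in either line, at -0.08 and -0.05 in K89E cells and -0.04 and 0.01 in empty vector cells.

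The proliferation marker MKI67 (ENSG00000148773_at), which coats mitotic chromosomes, read 11.50, 11.41 and 11.49 in withdrawn K89E cells, against 11.58, 11.57 and 11.57 with GM-CSF. Withdrawn empty vector cells read 11.49, 11.54 and 11.53, against 11.63, 11.60 and 11.58 with GM-CSF. The shift was narrow and without overlap in both lines. MKI67 fell by 0.10 (SE 0.028, limma adjusted p = 0.0196) in K89E and by 0.083 (SE 0.028, limma adjusted p = 0.0495) in empty vector cells, and these calls held in 10 and 2 of 12 fits with 1 array left out. They were lost in K89E cells without withdrawn replicate 2 or GM-CSF replicate 1, and in empty vector cells without any array other than withdrawn K89E replicates 1 and 2. TOP2A (ENSG00000131747_at), the topoisomerase that untangles chromosomes, was not called. It read 12.01, 11.88 and 11.96 in withdrawn K89E cells, against 12.00, 12.01 and 12.08 with GM-CSF, and 11.94, 11.99 and 11.97 in withdrawn empty vector cells, against 12.03, 12.02 and 12.02 with GM-CSF. Its log2 changes were -0.08 (95% interval -0.15 to -0.01, limma adjusted p = 0.0964) and -0.06 (95% interval -0.12 to 0.01, limma adjusted p = 0.271), and the K89E groups overlapped.

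**Figure D3:**
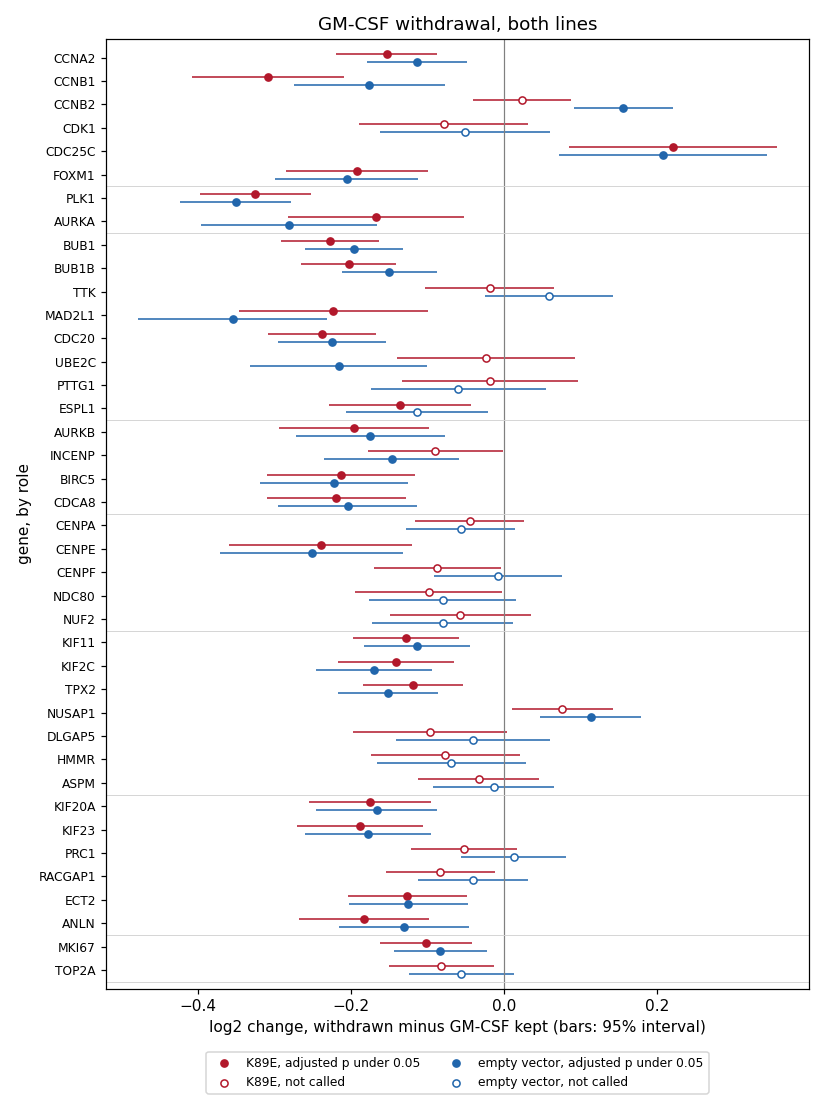
Points give the log2 change on GM-CSF withdrawal (x axis, withdrawn minus GM-CSF kept) of each of the 40 genes (down the page, grouped by role) in K89E and empty vector cells, bars the 95% interval, and filled points limma adjusted p under 0.05. Of the 40 points, 37 lie below 0 in K89E cells and 35 in empty vector cells, against 44.3% and 45.3% of all genes, and CDC25C, CCNB2 and NUSAP1 lie above 0 in both.

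The responses of both lines were similar across the 40 genes. Changes had the same sign in 38 of the 40 genes (95%), against 73.5% of all genes. Much of that agreement is set by direction alone, since 37 and 35 of the 40 changes lay below 0 in K89E and empty vector cells. Of all genes 44.3% and 45.3% did. Across the 40 genes, which share arrays and are not independent, the changes correlated at r = 0.863 (Spearman 0.838). Across all genes this correlation was 0.728. Neither the sign share nor the correlation was computed for the top bin. Of the 40 genes, 24 changed more in K89E than in empty vector cells in absolute terms. The share over all genes was not computed, nor was this count repeated without withdrawn K89E replicate 2. The median difference between responses was -0.014 with all arrays and 0.014 without that replicate. The difference between responses, tested as an interaction in limma, was called for 0 of the 40, where 0.0682% of all genes were called. At an unadjusted p under 0.05 it numbered 2 of the 40, no larger a share than the 5.61% of all genes. These 2, named after their values were seen, were CCNB2 and UBE2C. For CCNB2 the K89E minus empty vector response was -0.13 (95% interval -0.22 to -0.04, limma adjusted p = 0.646), and for UBE2C it was 0.19 (95% interval 0.03 to 0.36, limma adjusted p = 0.83). No difference between responses was called among the 40. Nor are they shown to be 0, since the 95% intervals reached between 0.085 and 0.19 to each side on the log2 scale.

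Between the lines fewer of the 40 genes were called than on withdrawal. In K89E cells after withdrawal 9 of 40 were lower (22.5%) and 1 was higher, where 6.01% of all genes and 13.1% of the top bin were lower and 6.52% of all genes higher. When GM-CSF was kept, 8 of 40 were lower in K89E cells (20%) and 1 was higher, where 4.39% of all genes and 10.2% of the top bin were lower and 5.21% of all genes higher. The median log2 difference of the 40 was -0.084 after withdrawal and -0.072 with GM-CSF, where both medians over all genes were -0.01. Over the top bin they were -0.017 and -0.012. Below 0 lay 37 of the 40 differences after withdrawal and 36 with GM-CSF, against 52.6% and 52.9% of all genes. Arrays of the lines did not overlap, with K89E lower, for 19 of the 40 under each condition, where 13.3% of all genes did so after withdrawal and 15.7% with GM-CSF. CCNA2, BUB1B, KIF11 and HMMR, 4 of the 40, were lower under both conditions, and 2.78% of all genes were. These conditions share no array, but their tests share an estimate of the spread. These counts depend on single arrays. After withdrawal the calls numbered 5, of which 4 were lower, without empty vector replicate 2 or without replicate 3. Of all genes 3.95% and 4.11% were lower in these fits. With GM-CSF the calls numbered 1 or 2, of which at most 1 was lower, without any empty vector array or without K89E replicate 2 or 3, and none of the lower calls held when the prior variance had no trend (0 lower). Of all genes these fits called between 2.5% and 2.91% lower. Without withdrawn K89E replicate 2, the calls after withdrawal numbered 7, of which 6 were lower, where 5.01% of all genes were lower. The median difference was then -0.054.

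CCNA2 and BUB1B were the genes whose lower level after withdrawal held in all 21 alternatives other than a minimum fold. CCNA2 read 10.99, 10.93 and 11.00 in withdrawn K89E cells, against 11.12, 11.14 and 11.12 in withdrawn empty vector cells. With GM-CSF it read 11.17, 11.10 and 11.12 in K89E cells, against 11.20, 11.28 and 11.25 in empty vector cells. The lines lay apart under both conditions, K89E lower. CCNA2 differed by -0.15 (SE 0.031, limma adjusted p = 0.00416) after withdrawal and by -0.11 (SE 0.031, limma adjusted p = 0.0297) with GM-CSF. BUB1B (ENSG00000156970_at), the checkpoint protein BUBR1, read 10.54, 10.46 and 10.50 in withdrawn K89E cells, against 10.63, 10.70 and 10.65 in withdrawn empty vector cells. With GM-CSF the values were 10.70, 10.69 and 10.71 in K89E and 10.81, 10.83 and 10.80 in empty vector cells. Again no arrays of the lines overlapped. BUB1B differed by -0.16 (SE 0.029, limma adjusted p = 0.00197) after withdrawal and by -0.11 (SE 0.029, limma adjusted p = 0.0289) with GM-CSF. With GM-CSF the calls of CCNA2 and BUB1B held in 8 and 6 of 12 fits with 1 array left out. The BUB1B call was lost whenever an array of the groups compared was left out. That of CCNA2 was lost without replicate 2 or 3 of either line with GM-CSF.

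HMMR (ENSG00000072571_at), which links spindle poles and microtubules, had the largest lower value in K89E cells under both conditions. It read 10.26, 10.07 and 10.22 in withdrawn K89E cells, against 10.31, 10.43 and 10.36 in withdrawn empty vector cells. With GM-CSF it read 10.25, 10.24 and 10.29 in K89E cells, against 10.43, 10.45 and 10.43 in empty vector cells. The lines did not overlap. HMMR differed by -0.18 under each condition (SE 0.045, limma adjusted p = 0.0154 after withdrawal and 0.0237 with GM-CSF), and its changes on withdrawal, -0.08 in K89E and -0.07 in empty vector cells, were not called. The call after withdrawal was lost without empty vector replicate 2 and in the fit on the 2 groups compared (limma adjusted p of at most 0.0734). That with GM-CSF held in 7 of 12 fits with 1 array left out. It was lost without any empty vector array or K89E replicate 1 or 2. KIF11, also lower under both conditions, differed by -0.14 after withdrawal and by -0.12 with GM-CSF. Its calls held in 17 and 14 of 21 alternatives. CENPF, TTK, NUSAP1, CCNB2 and ESPL1 were lower in K89E cells after withdrawal only by call, with differences of -0.15, -0.14, -0.13, -0.12 and -0.14. All 5 of these calls were lost with a prior variance without a trend and without empty vector replicate 3. With 1 array left out they held in 9, 9, 11, 10 and 4 of 12 fits in the same order, with limma adjusted p of at most 0.161 over all alternatives. With GM-CSF, calls of lower levels were made for PLK1, FOXM1, INCENP and TPX2 but not after withdrawal, with differences of -0.13, -0.15, -0.14 and -0.11. For PLK1 and FOXM1 the differences after withdrawal were -0.11 and -0.14, each at limma adjusted p = 0.0569. The calls of PLK1, FOXM1, INCENP and TPX2 with GM-CSF held in 7, 5, 3 and 7 of 12 fits with 1 array left out. With GM-CSF, each of these calls was lost when any empty vector array, or K89E replicate 2 or 3, was left out. Whether any of these differences changed with GM-CSF is the interaction test above, which called none.

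ANLN (ENSG00000011426_at) was the gene of the list that was higher in K89E cells. It read 10.78, 10.81 and 10.83 in withdrawn K89E cells, against 10.59, 10.70 and 10.69 in withdrawn empty vector cells. With GM-CSF it read 11.03, 10.91 and 11.04 in K89E cells, against 10.79, 10.75 and 10.83 in empty vector cells. K89E arrays lay above empty vector arrays under both conditions. The log2 difference was 0.15 (SE 0.039, limma adjusted p = 0.0227) after withdrawal and 0.20 (SE 0.039, limma adjusted p = 0.00452) with GM-CSF. The call with GM-CSF held in all 21 alternatives other than a minimum fold. That after withdrawal was lost with a prior variance without a trend, with array weights, and without empty vector replicate 1 or K89E replicate 2 or 3, with adjusted p of at most 0.0898. AURKA and UBE2C also had positive differences after withdrawal, 0.13 and 0.10, which were not called (limma adjusted p = 0.147 and 0.29).

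**Figure D4:**
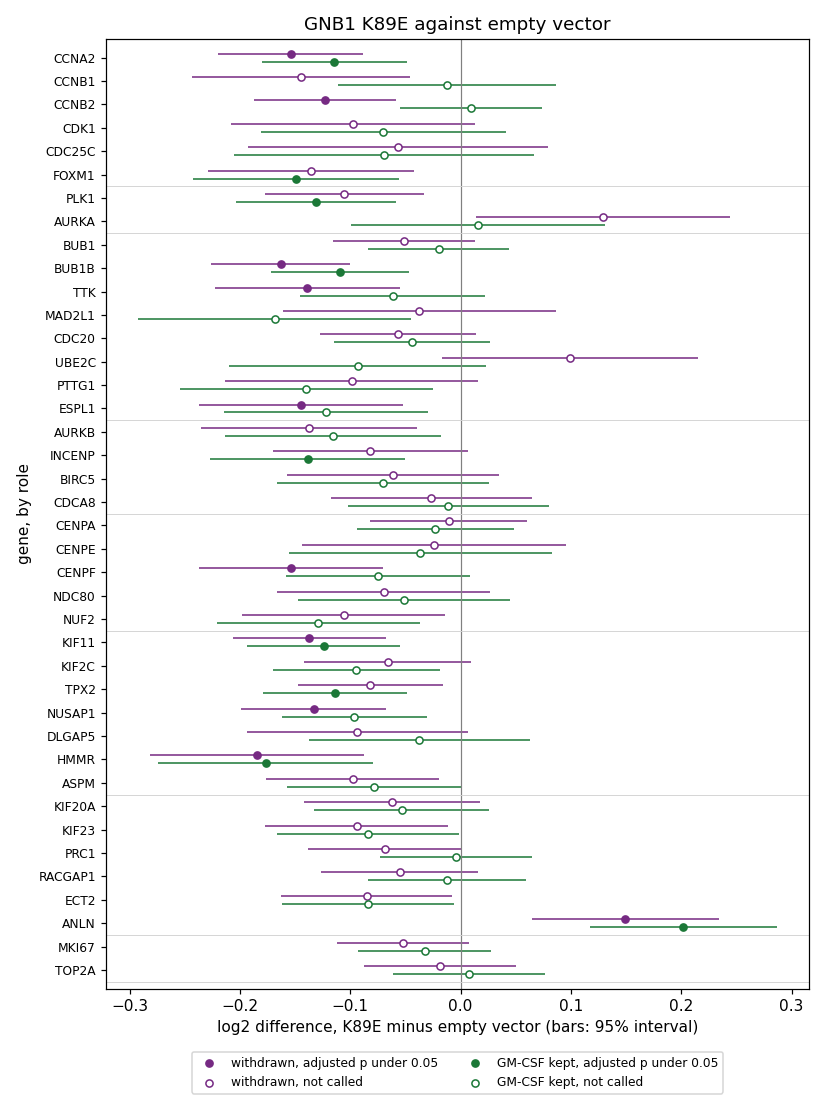
Points give the log2 difference of K89E minus empty vector cells (x axis) for each of the 40 genes (down the page, grouped by role) after withdrawal and with GM-CSF kept, bars the 95% interval, and filled points limma adjusted p under 0.05. Most points lie between -0.2 and 0, and ANLN lies above 0 under both conditions at 0.15 and 0.20.

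**Figure D5:**
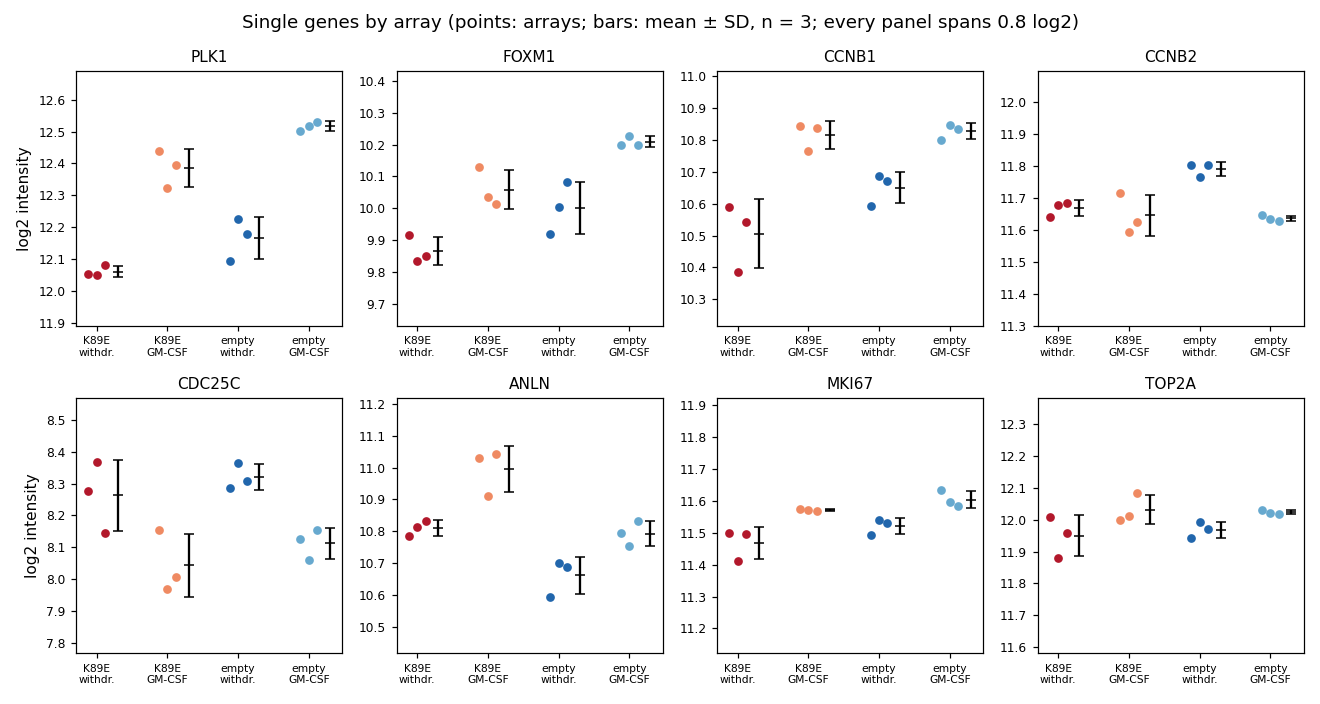
Log2 intensity (y axis) of 8 genes in each array of the 4 groups (x axis), with points for arrays and bars for the mean ± SD (n = 3). Panels have the same span, so steps can be compared. PLK1 and FOXM1 step down with withdrawal in both lines, CCNB2 is raised in withdrawn empty vector cells, CDC25C is raised by withdrawal, ANLN is higher in K89E cells, and MKI67 and TOP2A shift little.

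Genes with and without the motifs shown above were set side by side, with no test. The 7 genes without a window were left out. In withdrawn K89E cells 11 of the 25 genes with TTTGAA in a window fell and their median log2 change was -0.097, and 7 of the 8 genes without it fell with a median of -0.19. In empty vector cells 11 of 25 fell with a median of -0.081, and 7 of 8 fell with a median of -0.17. Of the top bin 28.6% fell in K89E and 30.0% in empty vector cells. Genes without TTTGAA may hold the variant TTTAAA, as CCNB1, CENPE, KIF20A, KIF2C and PTTG1 do. With and without CCAAT the medians were -0.103 and -0.163 in K89E cells, and -0.114 and -0.141 in empty vector cells. With and without TTTAAA they were -0.0875 and -0.127 in K89E cells, and -0.0599 and -0.114 in empty vector cells. For K89E minus empty vector after withdrawal the medians were -0.094 with TTTGAA and -0.082 without it. The gene with the largest fall, MAD2L1, and the one with the largest rise, CDC25C, in empty vector cells both carry the letters.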

How the data were processed

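Biotin-labelled cRNA from total RNA was measured by an Affymetrix protocol in 12 samples, 3 per group, per the labels. The authors deposited 1 linear intensity per gene ID, already normalized. RMA is named in the submitters' processing notes, while the version, genome build, type of array and make-up of probe sets are not given in sources used here. Precision is limited by how many arrays there were, and the labels name no batch.

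The deposited intensities were put on the log2 scale with no pseudocount. A limma model (limma 3.58.1, R 4.3.3) covered all 21996 genes and 12 arrays, had a mean for each group and let the prior variance follow the mean level. Tests were 2-sided, p-values were adjusted by Benjamini-Hochberg over all genes in each of 5 comparisons, and calls were made at adjusted p under 0.05. The procedure was run on simulated data with planted changes larger than most of those reported here. It does not show how well smaller changes are found. Other normalizations, variance models, sample sets and left-out arrays were tried as alternatives.

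The 40 genes, their role groups and the other lists were chosen with earlier results of these data known. All array values are given for the gene with the largest change of each role group in withdrawal of each line and in K89E against empty vector under each condition, and for MKI67, TOP2A, CCNB1, CDK1, PLK1 and FOXM1. That rule gave 23 genes, and CCNB2 was added after its values were seen. Lists of other cell cycle genes and markers were not used here, since 0 of 59792 reference rows pair a gene with an Ensembl ID. RefSeq promoter windows were searched for exact letters.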

Additional observations from a re-analysis of the deposited data

How the results depend on the processing

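The median member change of the 4 pairwise comparisons was below 0 under every alternative run. Requiring a 1.5-fold change left 0 calls in all 5 comparisons, by construction. The causes of the other moves were not tested. For withdrawal in K89E cells, quantile normalization gave a median change of -0.082 and called 15 genes lower and 2 higher. A prior variance without a trend called 16 lower there, and a fit on 2 groups 17 lower and 0 higher, against 22 lower in the main fit. Of all genes these alternatives called 8.97%, 8.53% and 8.45% lower, against 10.6% in the main fit. For withdrawal in empty vector cells, quantile normalization called 16 genes lower and the prior without a trend 18, against 23 in the main fit. Of all genes they called 10.4% and 9.89% lower, against 11.7% in the main fit. Centring on array medians gave a median of -0.15 and 1 higher call in this comparison. For K89E against empty vector after withdrawal, a prior variance without a trend called 3 genes, 3 lower and 0 higher, centring 5 with 4 lower, the fit on 2 groups 6 with 5 lower, and array weights 0 higher. Of all genes the prior, centring and the fit on 2 groups called 4.33%, 4.14% and 3.37% lower, against 6.01% in the main fit. With GM-CSF kept, the prior without a trend called 1 gene and 0 lower, centring 5 lower, and array weights 16 with 15 lower. Of all genes these alternatives called 2.87%, 3.87% and 7.38% lower, against 4.39% in the main fit. The median difference between responses was 0.0039 after centring.

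With 1 array left out, calls numbered 15 to 24 for withdrawal in K89E cells (15 to 24 lower, 0 to 1 higher, median -0.14 to -0.087) and 19 to 26 in empty vector cells (16 to 23 lower, 1 to 3 higher, median -0.15 to -0.10). They numbered 5 to 13 for K89E against empty vector after withdrawal (4 to 13 lower, 0 to 1 higher, median -0.11 to -0.054) and 1 to 9 with GM-CSF (0 to 8 lower, 1 higher, median -0.081 to -0.062). Among all genes the called share ranged from 13.5% to 18.8% for withdrawal in K89E cells and from 15% to 21.2% in empty vector cells. For K89E against empty vector it ranged from 9.22% to 12.6% after withdrawal and from 5.94% to 10.1% with GM-CSF. The difference between responses gave 0 calls and a median of -0.039 to 0.014, above 0 without empty vector withdrawn replicate 2 or K89E withdrawn replicate 2.

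Correlations of deviations from group means ran from -0.20 to 0.23 between arrays with the same number and from -0.21 to 0.20 between others, so the numbers were not taken as pairs. With the replicate block, calls numbered 22 and 25 for withdrawal in K89E and empty vector cells, 9 and 8 for K89E against empty vector after withdrawal and with GM-CSF, and 0 for the difference between responses. Of all genes the block called 17.4%, 20%, 12.3%, 9.17% and 0.0364% in the same order. Of 1496 recomputed values of single genes called in the report, 1216 kept their call and none changed direction. These values include the 1.5-fold minimum, which removes every call by construction. They also include fits without an array of a group not compared, which keep the log2 change. The total is therefore not a measure of how stable the calls are. Of 2864 values not called, 39 became called and 115 changed sign without a call.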
